A study of Mus musculus with 21 samples.

Results

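The miR-148 and miR-152 family comprises the mature arms of the hairpins Mir148a, Mir148b and Mir152. Its 6 arms were taken by name from the 1903 named microRNAs of a left ventricular small RNA count table, of which 832 had a count in any library. All 6 arms passed the filter on low counts and were among the 561 microRNAs tested. The family was chosen by the fold change of miR-148a-3p, which had been seen to be much lower with sildenafil than in untreated pressure-overloaded hearts. The members' values in that contrast are therefore given as a description, without a test, and tests were kept for the other comparisons.

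The mice were C57BL/6J, and 1 library was made per mouse from left ventricle myocardium. The 5 TAC+PDE5A-I mice had pressure-overload surgery and the PDE5A inhibitor sildenafil, and the 6 TAC+PDE9A-I mice had the same surgery and the PDE9A inhibitor PF-04449613. The 5 TAC mice had the surgery and no drug, and the 5 Sham mice had sham surgery and no drug. TAC is a constriction of the aorta that makes the ventricle pump against high pressure, and phosphodiesterases 5A and 9A break down cyclic GMP. Each drug was given for 4 weeks from 1 week after surgery. Neither dose is stated in the labels, so the drugs cannot be compared at a matched dose, and no group had sham surgery with a drug. The RNA came from whole tissue, in which fewer cells of a type and less RNA per cell cannot be told apart.

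A microRNA finds its targets mainly through its seed, the bases near its 5′ end, so microRNAs with 1 seed share many targets. The 3p arms of this family are best known for lowering the DNA methyltransferases DNMT1 and DNMT3B, mostly from work in human cells. In liver, miR-148a also acts on the LDL receptor and the cholesterol exporter ABCA1. Mir148b and Mir152 lie in introns of Copz1 and Copz2, which encode the zeta subunits of the COPI vesicle coat.

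The mature sequences are shown because the 3 guide arms share a seed yet differed in how they varied between libraries. They come from RefSeq on GRCm38.p6, all 6 arms matched by name, and capitals mark bases 2 to 8.
miR-148a-3p: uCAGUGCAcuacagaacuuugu
miR-148b-3p: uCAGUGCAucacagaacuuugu
miR-152-3p: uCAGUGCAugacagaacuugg
miR-148a-5p: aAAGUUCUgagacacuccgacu
miR-148b-5p: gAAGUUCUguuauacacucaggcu
miR-152-5p: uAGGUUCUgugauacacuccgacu

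Among 1679 mature microRNAs of the RefSeq table, the seed CAGUGCA was found in 3, the 3p arms of this family. With positions counted from 1 at the 5′ end, miR-148b-3p differed from miR-148a-3p by C9U and U10C, and the other 20 of 22 bases were the same. From miR-148a-3p to miR-152-3p the changes were C9U, U10G and U20G over 21 aligned positions. From miR-148b-3p to miR-152-3p they were C10G and U20G. Reads with an error at these positions could be assigned to the wrong member, so the values of the 3p arms carry that uncertainty. The GC content was 40.9% in both miR-148a-3p and miR-148b-3p and 47.6% in miR-152-3p. The 5p arms of miR-148a and miR-148b shared the bases AAGUUCU at positions 2 to 8, where miR-152-5p has AGGUUCU.

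On GRCm38.p6, Mir148a lies at chr6:51269812-51269910 on the minus strand, with no overlapping gene in the GENCODE annotation. Mir148b lies at chr15:103285125-103285221 on the plus strand, in an intron of Copz1. Mir152 lies at chr11:96850393-96850465 on the plus strand, in an intron of Copz2. For the counts themselves the build is not given in the sources used here.

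Several libraries stood apart before any comparison. Total microRNA counts were 1205417 to 3969716 in TAC+PDE5A-I, 1546318 in TAC+PDE9A-I 5, 4785164 to 7532591 in the other 5 TAC+PDE9A-I libraries, 5373960 to 8497792 in TAC and 3766517 to 7490436 in Sham. The number of microRNAs detected was 364 to 517 in TAC+PDE5A-I, 386 in TAC+PDE9A-I 5, 518 to 598 in the rest of that group, 524 to 613 in TAC and 509 to 559 in Sham. The count-weighted GC content of the microRNAs with a reference sequence, which held as little as 32% of a library's counts, was 46.0% to 48.6% in TAC+PDE5A-I, 47.2% in TAC+PDE9A-I 5, 44.7% to 45.3% in the rest of that group, 44.9% to 45.1% in TAC and 44.6% to 45.0% in Sham. So the TAC+PDE5A-I libraries and TAC+PDE9A-I 5 stood above every other library in GC content. The 6 markers of heart and skeletal muscle, found in every library, made up 16.1% to 23.1% of counts in TAC+PDE5A-I, 8.95% to 20.5% in TAC+PDE9A-I, 7.43% to 15.0% in TAC and 14.0% to 16.2% in Sham. That sum does not speak for each marker. In TAC+PDE5A-I against TAC the log2 fold change was -3.31 for miR-208a-3p, -4.07 for miR-208b-3p and -2.37 for miR-499-5p, but 0.23 for miR-133b-3p. The 2 liver markers stayed at or below 0.000543% of counts in every group. A count of 0 allows up to 3 counts, which is 2.49 CPM (unscaled, counts relative to the library total) in the shallowest library. Such limits cover counting error only, because PCR copies of 1 molecule are counted separately here.

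In sham-operated ventricles the family was led by a single arm. miR-148a-3p ranked 20 of 561 by level in Sham, against 74 for miR-148b-3p, 110 for miR-152-3p, 182 for miR-152-5p, 210 for miR-148a-5p and 228 for miR-148b-5p. Levels are in CPM after TMM scaling, which adjusts for composition, and an arm-to-arm comparison of them also reflects how well each sequence was cloned. In Sham, miR-148a-3p held 88.1% ± 1.57 of the family's counts (SD, n = 5), miR-148b-3p 7.73% ± 1.09 and miR-152-3p 2.83% ± 0.314. The family as a whole held 0.738% ± 0.0795 of all microRNA counts in Sham.

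The family's share of all counts was 0.200% ± 0.0728 in TAC+PDE5A-I (SD, n = 5), 0.744% ± 0.333 in TAC+PDE9A-I (n = 6) and 0.905% ± 0.230 in TAC (n = 5). Without TAC+PDE9A-I 5 the share in that group was 0.870% ± 0.139 (n = 5). miR-148a-3p held 58.2% ± 14.0 of family counts in TAC+PDE5A-I, 83.1% ± 12.2 in TAC+PDE9A-I and 87.9% ± 2.03 in TAC. It was 58.4% in TAC+PDE9A-I 5 and 88.0% ± 1.87 in the rest of that group (n = 5). The share of miR-148a-3p thus lay close together in TAC and Sham and was smaller in the sildenafil libraries and in TAC+PDE9A-I 5.

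**Figure D1:**
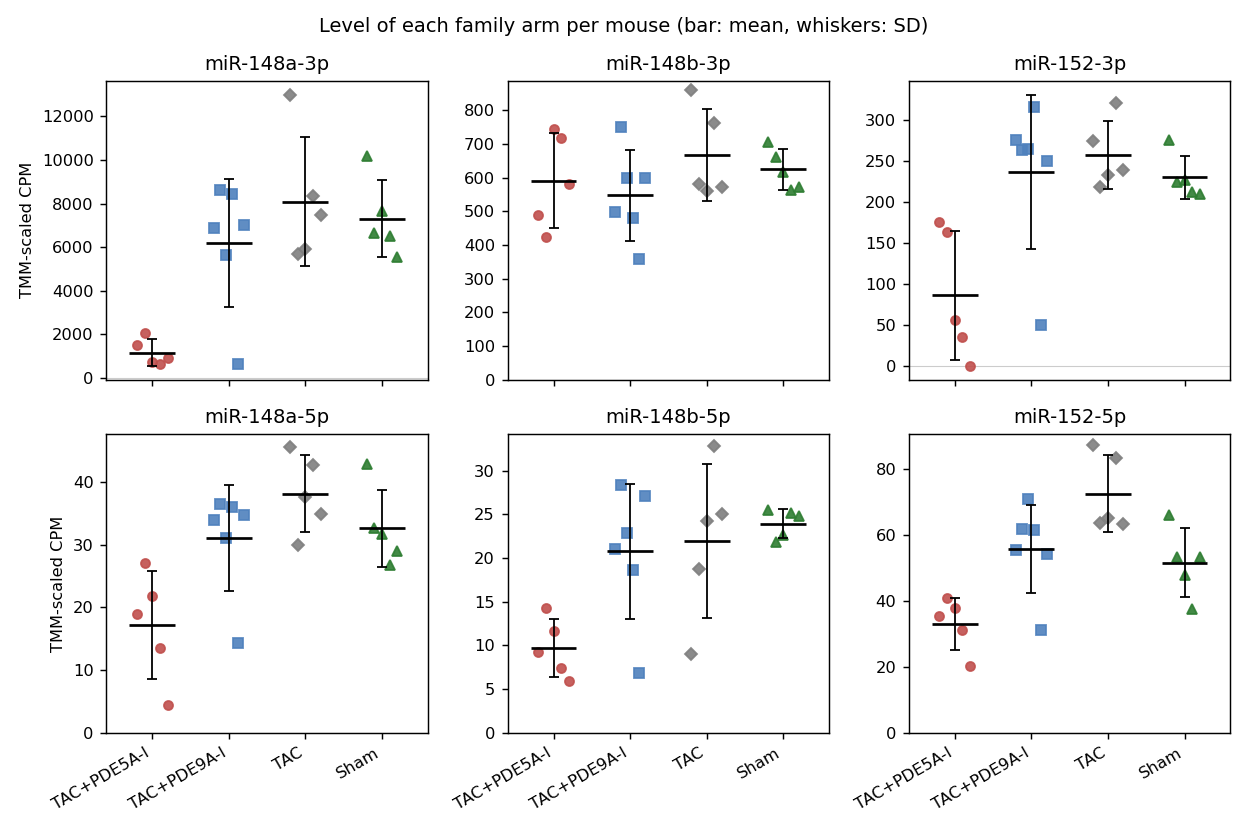
Level of each of the 6 family arms in TMM-scaled CPM (vertical axes, linear) for every mouse, in the groups TAC+PDE5A-I (n = 5), TAC+PDE9A-I (n = 6), TAC (n = 5) and Sham (n = 5), with bars at the mean and whiskers of 1 SD. miR-148a-3p lies between 620 and 2085 CPM in TAC+PDE5A-I and between 5673 and 12994 CPM in TAC, while miR-148b-3p overlaps in all 4 groups.

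In pressure overload, no family arm passed the test. In TAC against Sham, 2.32% of the 561 microRNAs tested were called by edgeR's quasi-likelihood test, with p-values adjusted after Benjamini and Hochberg and a threshold of 0.05, and 0 of the 6 family arms were. miR-148a-3p, the main guide, had 12994, 5673, 5924, 8335 and 7478 CPM in TAC, against 10172, 6656, 7668, 6499 and 5542 CPM in Sham. TAC 1 and Sham 1 were the high mice of their groups, and the groups overlapped. The log2 fold change was 0.15 ± 0.46 (SE), with a 95% interval of -0.82 to 1.11 and an adjusted p of 0.973 in edgeR. The SE draws on the spread in all 4 groups. In a fit of TAC and Sham alone the value was 0.29 ± 0.22 (adjusted p = 0.420 in edgeR).

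miR-148b-3p, the Copz1-intron guide, had 862, 580, 561, 763 and 572 CPM in TAC, against 707, 663, 616, 564 and 573 CPM in Sham. Again the groups overlapped, with the 2 highest values in TAC 1 and TAC 4. Its log2 fold change was 0.10 ± 0.20 (95% interval -0.33 to 0.52; adjusted p = 0.973 in edgeR).

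miR-152-3p, the Copz2-intron guide, had 275, 219, 233, 321 and 240 CPM in TAC, against 276, 224, 227, 213 and 210 CPM in Sham. Only TAC 4 lay above the whole Sham range. The log2 fold change was 0.16 ± 0.67 (adjusted p = 0.980 in edgeR). That fit shares its estimate of spread with the sildenafil libraries. With neither the TAC+PDE5A-I libraries nor TAC+PDE9A-I 5 in it, an alternative chosen after seeing the data, the value was 0.21 ± 0.12 (adjusted p = 0.268 in edgeR).

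The passenger arm miR-152-5p had 87.2, 63.5, 65.0, 83.2 and 63.4 CPM in TAC, against 66.0, 53.4, 47.7, 37.5 and 53.4 CPM in Sham. The groups met only at Sham 1, which was above 3 TAC mice. Its log2 fold change was 0.49 ± 0.22, 1.40-fold, with an unadjusted p of 0.0371 and an adjusted p of 0.270 in edgeR over all microRNAs. In that fit 88 of the 561 microRNAs had an unadjusted p under 0.05. Over 21 alternatives the adjusted p ran from 0.0109 to 0.570 and passed in 2. These were the fit of the 2 groups alone (log2 fold change 0.62 ± 0.15, adjusted p = 0.0109 in edgeR) and the fit with neither the TAC+PDE5A-I libraries nor TAC+PDE9A-I 5 (0.55 ± 0.14, adjusted p = 0.0176). Calls among all microRNAs rose in both. They were 75 higher and 23 lower in the first and 54 and 27 in the second, against 12 and 1 in the main fit. Within ranges of ear tag numbers, the only batch-like label, the log2 difference was 0.43 in the 100 range (2 TAC against 3 Sham mice) and 0.69 in the 600 range (2 against 2). The 5 stromal markers moved alongside, at 0.551% to 0.882% of counts in TAC and 0.197% to 0.258% in Sham, and their part in this value was not tested.

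miR-148a-5p was at 38.1 ± 6.18 CPM in TAC and 32.6 ± 6.15 CPM in Sham (SD, n = 5 each), with an edgeR adjusted p of 0.920. miR-148b-5p was at 22.0 ± 8.82 CPM in TAC and 24.0 ± 1.63 CPM in Sham, with an edgeR adjusted p of 0.973. Its spread in TAC came largely from TAC 1, at 9.03 CPM. In 16.9% of the 561 microRNAs the TAC and Sham ranges did not overlap, and in the family this held for 0 of 6 arms.

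Ratios of 2 members within a library do not depend on scaling between libraries. There were 6 ratios and 3 tested comparisons, so 18 exact permutation tests, each two-sided on log2 ratios with 0.5 added to each count, and none passed after adjustment over the 18. The lowest p was for miR-152-3p to miR-152-5p in TAC against Sham. That ratio was 3.16, 3.45, 3.59, 3.86 and 3.78 in TAC, against 4.18, 4.2, 4.76, 5.66 and 3.94 in Sham. Every TAC mouse lay below every Sham mouse, with fewer guide counts beside each passenger count in TAC. TAC and Sham overlapped in all the other ratios. The levels of 16.9% of single microRNAs had TAC and Sham ranges apart, but no such share was computed for ratios of other microRNAs. The mean log2 ratio was 1.83 ± 0.12 in TAC and 2.17 ± 0.21 in Sham (SD, n = 5 each), a difference of -0.34. The exact permutation p was 0.00794, the smallest that 5 against 5 mice allow, and the adjusted p was 0.143. Leaving out any 1 mouse gave differences of -0.39 to -0.26.

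The other 5 ratios had exact permutation p-values in TAC against Sham that all adjusted to 0.899. miR-148a-3p to miR-148b-3p, for example, had geometric means of 11.7 in TAC and 11.5 in Sham. For the ratios among the 3 guides, the TAC and Sham mean log2 ratios differed by less than the SD between mice pooled over both groups.

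With the PDE9A inhibitor, no family arm differed from either group by the test. TAC+PDE9A-I against TAC had 0% of the 561 microRNAs called by edgeR, with 16 at an unadjusted p under 0.05 and 4 called by DESeq2. TAC+PDE9A-I against Sham had 1.96% called. Both numbers for the family were 0 of 6 arms. TAC+PDE9A-I against Sham shares no library with the contrast by which the family was chosen, whereas the TAC libraries are shared between TAC+PDE9A-I against TAC, TAC against Sham and the sildenafil contrast.

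miR-148a-3p ran from 646 to 8628 CPM in TAC+PDE9A-I with a median of 6962, against 5673 to 12994 CPM in TAC and 5542 to 10172 CPM in Sham. The lowest value was in TAC+PDE9A-I 5, and the other 5 libraries lay between 5632 and 8628 CPM. Its log2 fold change was -0.38 ± 0.44 against TAC (95% interval -1.30 to 0.54; adjusted p = 0.991 in edgeR) and -0.24 ± 0.44 against Sham (-1.15 to 0.68; adjusted p = 0.963). Without TAC+PDE9A-I 5 these were -0.13 ± 0.33 and 0.11 ± 0.33, so the direction against Sham turned with that library.

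miR-148b-3p ran from 357 to 751 CPM in TAC+PDE9A-I with a median of 548, against 561 to 862 CPM in TAC and 564 to 707 CPM in Sham. Its log2 fold change was -0.29 ± 0.19 against TAC (95% interval -0.69 to 0.12) and -0.19 ± 0.19 against Sham (-0.59 to 0.22), with edgeR adjusted p-values of 0.991 and 0.949. The value against TAC changed sign with the GC correction, to 0.25 ± 0.39. The value against Sham changed sign with total counts (0.01 ± 0.16), the GC correction (0.33 ± 0.39) and ear tag range (0.01 ± 0.24). TAC+PDE9A-I 5 was again the lowest, though by a smaller margin than for miR-148a-3p.

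miR-152-3p ran from 50.0 to 317 CPM in TAC+PDE9A-I with a median of 264, against 219 to 321 CPM in TAC and 210 to 276 CPM in Sham. TAC+PDE9A-I 5 held the 50.0, and the other 5 libraries lay between 250 and 317 CPM. The log2 fold change was -0.12 ± 0.64 against TAC and 0.04 ± 0.64 against Sham, with edgeR adjusted p-values of 0.991 and 0.997. Without TAC+PDE9A-I 5 the value against TAC turned to 0.11 ± 0.65.

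The 3 passenger arms had log2 fold changes of -0.37 to -0.07 against TAC and -0.20 to 0.11 against Sham, none past the threshold. miR-152-5p averaged 55.8 ± 13.4 CPM in TAC+PDE9A-I (SD, n = 6), 72.5 ± 11.7 CPM in TAC and 51.6 ± 10.3 CPM in Sham (n = 5 each). Its log2 fold change was -0.37 ± 0.21 against TAC, with a 95% interval of -0.81 to 0.06 and an adjusted p of 0.991 in edgeR. The ranges of TAC+PDE9A-I and TAC did not overlap in 0% of microRNAs, and those of TAC+PDE9A-I and Sham in 3.92%, with 0 of 6 family arms apart in either.

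Within libraries, miR-148a-3p to miR-148b-3p was 9.41 to 17.5 in 5 of the TAC+PDE9A-I libraries and 1.81 in TAC+PDE9A-I 5, against 9.77 to 15.1 in TAC and 9.68 to 14.4 in Sham. The mean log2 ratio was 3.18 ± 1.18 in TAC+PDE9A-I (n = 6), 3.55 ± 0.25 in TAC and 3.52 ± 0.23 in Sham (SD, n = 5 each). The exact permutation p was 0.758 against TAC and 0.797 against Sham, both 0.899 after adjustment. The lowest p with this drug was for miR-148a-3p to miR-152-3p against Sham, at mean log2 ratios of 4.55 ± 0.47 in TAC+PDE9A-I and 4.96 ± 0.19 in Sham, with an exact permutation p of 0.0649 and an adjusted p of 0.584.

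**Figure D2:**
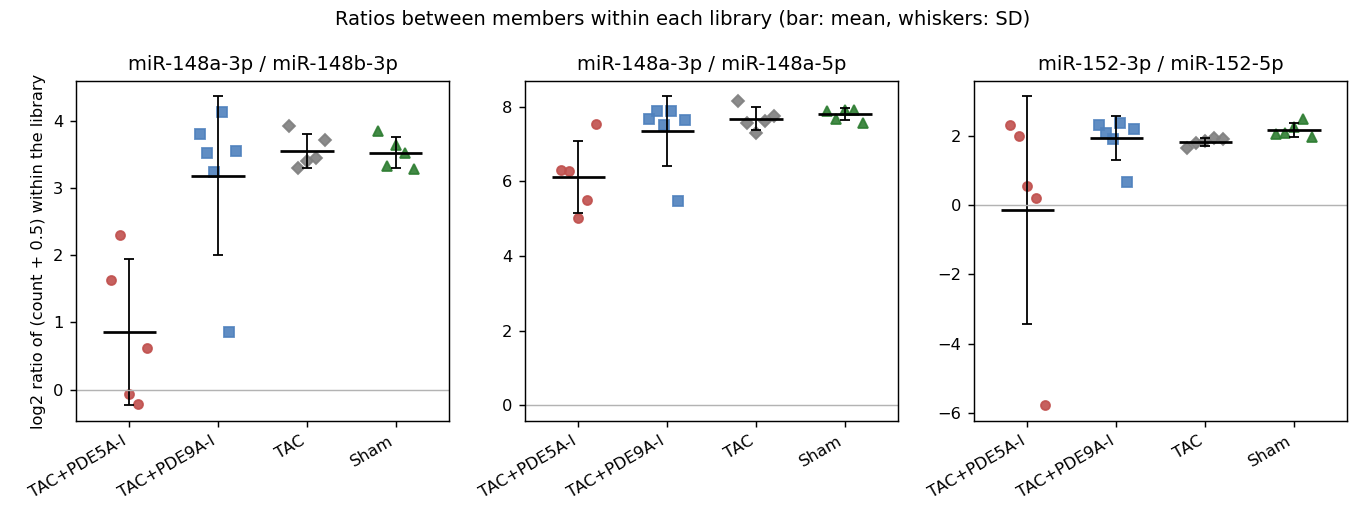
Log2 ratio of 2 family members within each library (0.5 added to each count) for miR-148a-3p to miR-148b-3p, miR-148a-3p to miR-148a-5p and miR-152-3p to miR-152-5p, in TAC+PDE5A-I, TAC+PDE9A-I, TAC and Sham. Bars are means and whiskers 1 SD. The first ratio averages 0.85 in TAC+PDE5A-I, 3.18 in TAC+PDE9A-I with 1 library at 0.85, 3.55 in TAC and 3.52 in Sham.

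In the sildenafil libraries the 3 guides that share a seed parted ways. This contrast chose the family, so what follows is a description. Across all 561 microRNAs, 46.3% were called in TAC+PDE5A-I against TAC and 33.9% had ranges that did not overlap, against 4 of 6 family arms with ranges apart, and nothing is read from that count. miR-148a-3p had 1506, 2085, 710, 620 and 898 CPM in TAC+PDE5A-I, against 12994, 5673, 5924, 8335 and 7478 CPM in TAC. The highest sildenafil mouse was below the lowest TAC mouse. The fitted log2 fold change was -2.80 ± 0.49, 6.94-fold lower with sildenafil, at rank 77 of 561 from the lowest.

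miR-148b-3p, with the same seed and the same GC content, had 489, 423, 744, 719 and 583 CPM in TAC+PDE5A-I, against 862, 580, 561, 763 and 572 CPM in TAC. These ranges overlapped, and TAC+PDE5A-I 3 and 4, among the lowest for miR-148a-3p, were the highest of their group here. The fitted log2 fold change was -0.18 ± 0.20 (95% interval -0.60 to 0.25). It was -0.53 without TAC+PDE5A-I 3 and -0.52 without TAC+PDE5A-I 4. With upper-quartile scaling the sign turned, to 0.37 ± 0.20, while the median of all microRNAs went to 0.16 from -0.31 under TMM.

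miR-152-3p had 175, 164, 55.8, 35.7 and 0 CPM in TAC+PDE5A-I, against 275, 219, 233, 321 and 240 CPM in TAC. All lay below the TAC range, and replicates 1 and 2, the deeper libraries of the group, were nearer to it than replicates 3 to 5. TAC+PDE5A-I 5 had 0 counts of miR-152-3p beside 27 counts of miR-152-5p from the same hairpin. The fitted log2 fold change was -1.57 ± 0.69, 2.96-fold lower with sildenafil. Without TAC+PDE5A-I 5 it was -1.40.

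The passenger arms were closer to each other than the guides were. miR-148a-5p averaged 17.1 ± 8.60 CPM in TAC+PDE5A-I and 38.1 ± 6.18 CPM in TAC (SD, n = 5 each), a fitted log2 fold change of -1.14 ± 0.32. miR-148b-5p averaged 9.71 ± 3.32 CPM in TAC+PDE5A-I and 22.0 ± 8.82 CPM in TAC, a log2 fold change of -1.16 ± 0.34. miR-152-5p averaged 33.0 ± 8.0 CPM in TAC+PDE5A-I and 72.5 ± 11.7 CPM in TAC, a log2 fold change of -1.13 ± 0.22. So the guide of the miR-148b hairpin lay near its TAC level while its own passenger arm lay 2.23-fold below, and the guide of the miR-148a hairpin lay further below than its passenger. With a correction for GC content the passenger values shrank or changed sign.

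Against Sham, 32.8% of microRNAs had TAC+PDE5A-I ranges that did not overlap with those of Sham, and 3 of the 6 arms did. These were miR-148a-3p, miR-148b-5p and miR-152-3p, with log2 fold changes of -2.65 ± 0.49, -1.28 ± 0.34 and -1.40 ± 0.68. miR-148b-3p was at -0.08 ± 0.20. Side by side with the other drug, at doses not given, miR-148a-3p averaged 1164 ± 620 CPM in TAC+PDE5A-I and 6208 ± 2938 CPM in TAC+PDE9A-I, where TAC+PDE9A-I 5 fell inside the sildenafil range at 646 CPM. These comparisons share the sildenafil libraries and add no independent evidence.

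Within libraries there were 3.08, 4.93, 0.954, 0.863 and 1.54 counts of miR-148a-3p per count of miR-148b-3p in TAC+PDE5A-I, against 15.1, 9.77, 10.6, 10.9 and 13.1 in TAC. In TAC+PDE5A-I 3 and 4 the usual order of these guides was turned round. The mean log2 ratio was 0.85 ± 1.09 in TAC+PDE5A-I and 3.55 ± 0.25 in TAC, a difference of -2.70, or 6.49-fold. The guide-to-passenger ratio of miR-148a had geometric means of 69.5 in TAC+PDE5A-I, 162 in TAC+PDE9A-I, 204 in TAC and 222 in Sham. It was 45.0 in TAC+PDE9A-I 5, while TAC+PDE5A-I 5, with 6 passenger counts, was at 200.5 and inside the TAC range, so TAC+PDE5A-I and TAC overlapped.

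Library depth went with the ratio of miR-148a-3p to miR-148b-3p among the shallowest libraries, though not throughout. Sham 4, with 3766517 total counts, had a ratio of 11.5. TAC+PDE5A-I 2, with 3969716, had a ratio of 4.93. The libraries with under 2 counts of miR-148a-3p per count of miR-148b-3p were TAC+PDE5A-I 3, 4 and 5 and TAC+PDE9A-I 5, the shallowest 4 of the series, with 1631406, 1387007, 1205417 and 1546318 total counts. The count-weighted GC content separated the same sets of libraries. It was 47.2% to 48.6% in those 4, 46.0% in TAC+PDE5A-I 1 and 2, and 44.6% to 45.3% in all others. Its part in the ratio was not tested. Within ranges of ear tag numbers the log2 difference of miR-148a-3p between TAC+PDE5A-I and TAC was -1.74 in the 500 range (2 mice against 1) and -3.43 in the 600 range (3 against 2). Whether the drug, the depth or another feature of these libraries sets the ratio cannot be told apart, because no other group had libraries as shallow as TAC+PDE5A-I 3 to 5 apart from TAC+PDE9A-I 5.

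**Figure D3:**
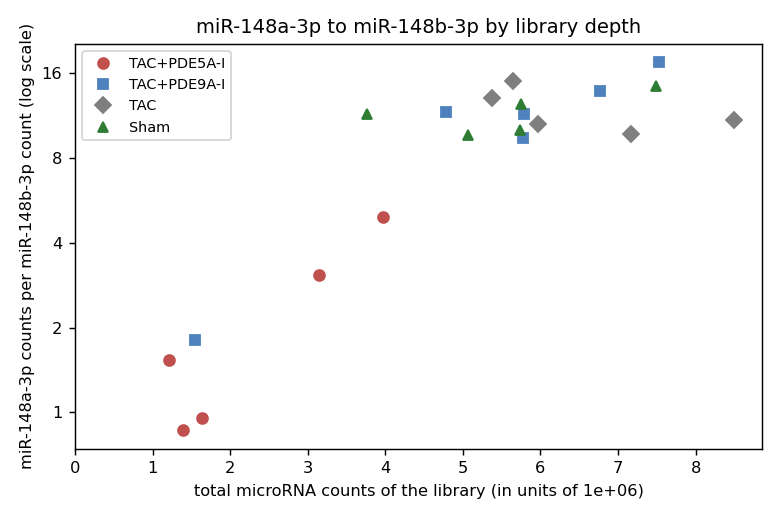
Counts of miR-148a-3p per count of miR-148b-3p (vertical axis, log scale) against the total microRNA counts of the library (horizontal axis, in units of 1e+06), 1 point per mouse, by group. The 3 shallowest TAC+PDE5A-I libraries and TAC+PDE9A-I 5 lie between 0.863 and 1.81, TAC+PDE5A-I 1 and 2 at 3.08 and 4.93, and the other 15 libraries between 9.41 and 17.5.

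The sildenafil fold changes were also set beside GC content, since miR-148a-3p and miR-148b-3p have the same. Of the 561 microRNAs, 487 (86.8%) had a GC value. The 26 others with the GC content of miR-148a-3p and miR-148b-3p and a mean of at least 10 CPM had a median log2 fold change of -1.15, in TAC+PDE5A-I against TAC. Of these, 1 lay below miR-148a-3p and 5 lay above miR-148b-3p. With an offset for GC per library, the log2 fold change was -1.19 ± 0.27 for miR-148a-3p, 1.83 ± 0.42 for miR-148b-3p and -1.17 ± 0.53 for miR-152-3p. The passenger arms were at -0.23 for miR-148a-5p, 0.42 for miR-148b-5p and -0.17 for miR-152-5p with the offset. The offset thus turned the sign of miR-148b-3p and miR-148b-5p, and brought miR-148a-3p and miR-152-3p to nearly the same value. It takes only GC content into account, so within a library it was the same for miR-148a-3p and miR-148b-3p. Their fitted values still shifted unequally, from -2.80 to -1.19 and from -0.18 to 1.83. The reason was not tested, and the offset was not made to explain the distance between them.

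**Figure D4:**
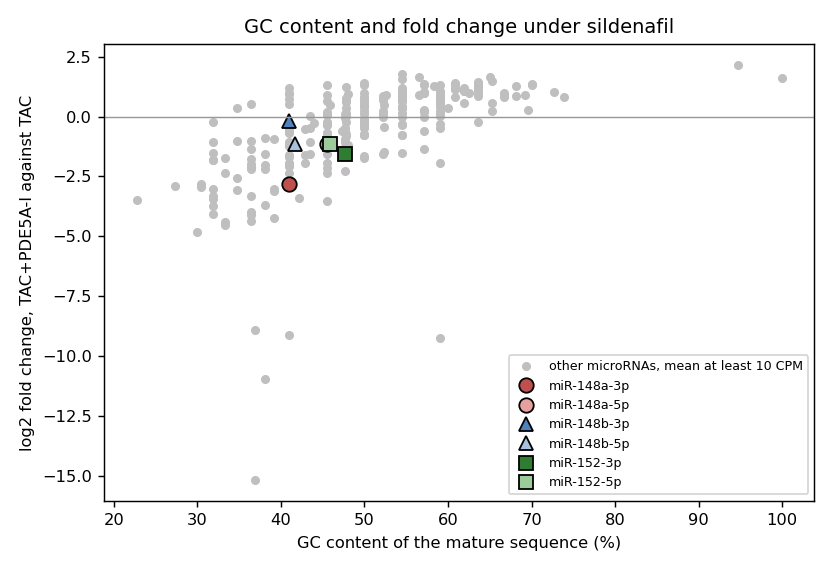
Fitted log2 fold change in TAC+PDE5A-I against TAC (vertical axis) against the GC content of the mature sequence in percent (horizontal axis), for microRNAs with a mean of at least 10 CPM (grey) and the 6 family arms (coloured). miR-148a-3p at -2.80 and miR-148b-3p at -0.18 share the position 40.9% on the horizontal axis.

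Cell type markers differed in the same libraries. The 5 stromal markers made up 0.136% to 0.387% of counts in TAC+PDE5A-I, 0.114% to 1.62% in TAC+PDE9A-I, 0.551% to 0.882% in TAC and 0.197% to 0.258% in Sham. The 4 smooth muscle markers made up 0.542% to 4.89% of counts in TAC+PDE5A-I, 1.21% to 10.4% in TAC+PDE9A-I, 7.61% to 13.0% in TAC and 6.96% to 9.21% in Sham. The 2 endothelial markers made up 0.111% to 1.77% in TAC+PDE5A-I, 0.325% to 4.28% in TAC+PDE9A-I, 2.96% to 4.13% in TAC and 3.27% to 3.80% in Sham. The 3 erythroid markers made up 0.00257% to 0.0469% in TAC+PDE5A-I, 0.00647% to 0.131% in TAC+PDE9A-I, 0.0441% to 0.117% in TAC and 0.0437% to 0.139% in Sham. The 5 leukocyte markers made up 0.237% to 0.334% in TAC+PDE5A-I, 0.202% to 0.317% in TAC+PDE9A-I, 0.126% to 0.254% in TAC and 0.206% to 0.262% in Sham. Only 4 of the 5 were found in every TAC+PDE5A-I library, and the sum hides opposite directions. In TAC+PDE5A-I against TAC the log2 fold change was -3.08 for miR-142a-3p, -4.52 for miR-142a-5p and -2.37 for miR-223-3p, but 0.37 for miR-155-5p. The part of these cell types in the family's values was not tested.

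**Figure D5:**
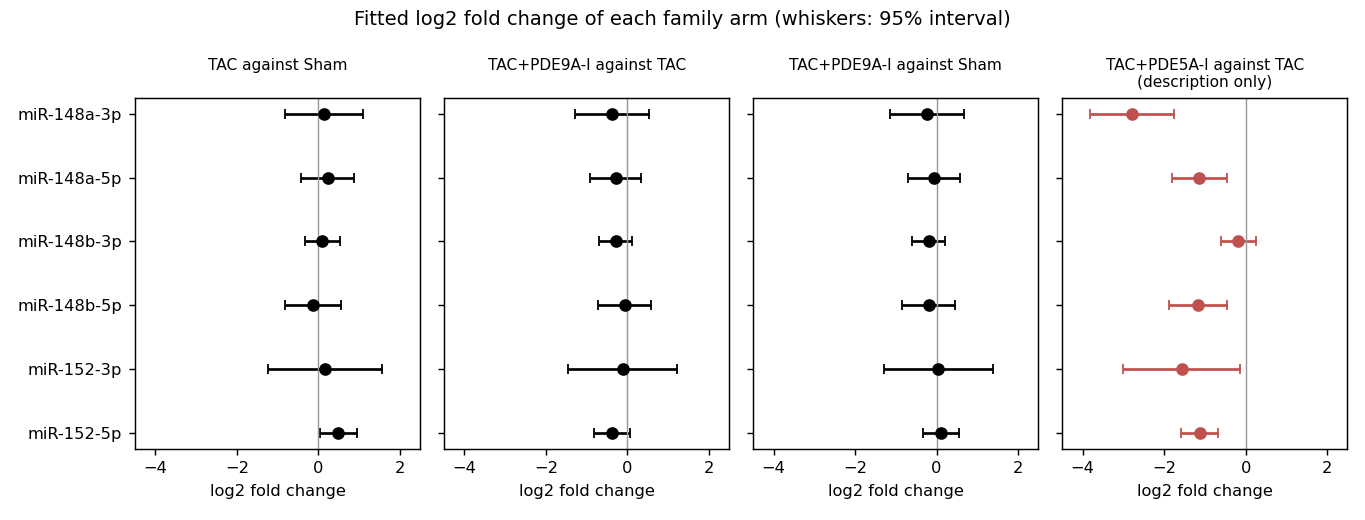
Fitted log2 fold change of each family arm (points) with its 95% interval (whiskers) in TAC against Sham, TAC+PDE9A-I against TAC, TAC+PDE9A-I against Sham and, as a description only, TAC+PDE5A-I against TAC. In the tested comparisons every point lies between -0.38 and 0.49, and in the sildenafil contrast they spread from -2.80 for miR-148a-3p to -0.18 for miR-148b-3p.

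Across the 21 libraries, miR-148b-3p varied apart from the other arms, which varied more closely together. Every pair with miR-148b-3p had an r between 0.08 and 0.39, and every pair without it between 0.68 and 0.94. Pearson's r of log2 CPM was 0.32 between miR-148a-3p and miR-148b-3p, 0.68 between miR-148a-3p and miR-152-3p and 0.08 between miR-148b-3p and miR-152-3p. The highest r in the family, 0.94, joined miR-148a-5p and miR-152-3p, which come from different chromosomes. TAC+PDE5A-I 5, with 0 counts of miR-152-3p, entered at a log2 CPM of -1.31 set by the prior count. It was also the lowest library for miR-148a-5p. How far that library carries the r values of miR-152-3p was not tested. All points share library depth as well, so the correlations are descriptions.

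The microRNAs most like each guide were sought among 297 others with a mean of at least 10 CPM. For miR-148a-3p they were miR-101b-3p (r = 0.980), miR-301a-3p (0.974) and miR-340-5p (0.973), over a median of 0.10 for all. With group means subtracted they were miR-301a-3p (0.959), miR-101b-3p (0.943) and miR-30d-3p (0.931). TAC+PDE9A-I 5 had a log2 CPM of 9.34 for miR-148a-3p, where its group mean was 12.24. The part of that library in these r values was not tested. For miR-152-3p they were miR-335-3p (0.946), miR-130a-3p (0.945) and miR-186-5p (0.942), and with group means subtracted miR-126b-5p (0.954), miR-379-5p (0.944) and miR-335-3p (0.931). Both sets for miR-152-3p include TAC+PDE5A-I 5 at 0 counts, and its part in these values was not tested. miR-148b-3p had no close match. Its highest were miR-24-1-5p (0.525), miR-181c-3p (0.515) and miR-7068-3p (0.448), and with group means subtracted miR-101c (0.526), miR-7068-3p (0.50) and miR-181c-3p (0.495).

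Other microRNAs described as acting on the same targets were looked at as fixed lists. The first held 8 microRNAs described as acting on DNA methyltransferases, all tested. None passed in TAC against Sham, TAC+PDE9A-I against TAC or TAC+PDE9A-I against Sham. Their median log2 fold changes were -0.34, -0.05 and -0.39, beside -0.08, -0.04 and -0.06 for all 561. In TAC+PDE5A-I against TAC 4 of the 8 were called lower and none higher, beside 24.8% of all microRNAs called lower, and the median was -1.61 beside -0.31 for all.

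The second list held 10 microRNAs described as acting on LDL receptor, ABCA1 or other cholesterol genes, of which 8 were tested. miR-122-5p, the main liver microRNA, and miR-758-3p did not pass the filter on low counts. None of the 8 passed in TAC against Sham, TAC+PDE9A-I against TAC or TAC+PDE9A-I against Sham, with medians of -0.0022, -0.31 and -0.18. In TAC+PDE5A-I against TAC 6 of the 8 were called lower and none higher, beside the same 24.8%, at a median of -1.95. Nothing is read from the counts in that contrast.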

How the data were processed

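Small RNA was sequenced from left ventricle myocardium of 21 mice, with TruSeq Small RNA libraries per the labels' protocols. What the authors deposited is 1 table of unnormalized counts per microRNA. The submitters' processing notes name DESeq 1.26.0, Bowtie 1.1.1, cutadapt 1.8 and CASAVA 1.8.4, with no roles, and the build is not given. The table has 25958 lines, 1903 with a name and 24055 blank ones with 0 counts. No value equals 1. Libraries carry separate ear tags, and no 2 libraries were identical.

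The counts were fitted in R 4.3.3 with edgeR 4.0.16 (TMM, filterByExpr by group, robust quasi-likelihood F test, all 4 groups in 1 fit with 17 residual degrees of freedom, Benjamini-Hochberg over 561, threshold 0.05). The prior count for log2 CPM was 2. Ratios were tested with exact permutation tests in SciPy 1.17.1 (252 arrangements for 5 against 5, 462 for 6 against 5). The scripts were tested on simulated data. Alternatives were other scalings, no filter, DESeq2 1.42.0, other sets of libraries, GC correction, a replicate block, ear-tag range and leaving out each library.

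Members and lists were chosen with earlier results of these data known. Named were all family arms, list members past the threshold in a tested comparison, and for each guide the 3 microRNAs with the highest r. The listed miR-122-5p and miR-758-3p are named because they were not tested. Muscle and leukocyte markers are named where members of a list went in opposite directions.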

Additional observations from a re-analysis of the deposited data

Results flagged for a closer look

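Each group of libraries was searched for a single value far from the others, for the 6 arms and 6 ratios in 4 groups. Of these 48 sets, 10 held one, where chance gives about 1 in 20 for a single set. The sets share arms and libraries, so no excess over chance is read from the 10. TAC+PDE9A-I 5, with 1546318 total counts, gave 6 of the 10, and TAC+PDE5A-I 5, with 1205417, gave 2.

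In TAC+PDE9A-I 5, miR-148a-5p was at 14.4 CPM and miR-152-3p at 50.0 CPM, both below the other 5 mice. The log2 ratios in that library were 0.85 for miR-148a-3p to miR-148b-3p, 5.46 for miR-148a-3p to miR-148a-5p, 5.64 for miR-148b-3p to miR-148b-5p and 0.67 for miR-152-3p to miR-152-5p. The third was the highest of its group and the other 3 were the lowest.

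In TAC+PDE5A-I 5, which had 0 counts of miR-152-3p, the log2 ratio of miR-148a-3p to miR-152-3p was 11.2 and that of miR-152-3p to miR-152-5p was -5.78. Both depend on the 0.5 added to each count. In TAC 1 the log2 ratio of miR-148b-3p to miR-148b-5p was 6.56, the highest of its group. In Sham 1 miR-152-3p was at 276 CPM, above the other Sham mice.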

How the results depend on the processing

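Low counts limit several values in TAC+PDE5A-I 5, which had 0 counts of miR-152-3p, 6 of miR-148a-5p and 8 of miR-148b-5p. Of 588 alternative values of fold changes and counts of calls, 509 kept their direction and side of the threshold, or moved by less than the spread between mice or 1.5 times. Of 276 alternative ratios 253 did. No tested family value became called under an alternative run, except miR-152-5p in TAC against Sham (0.62 in the 2-group fit, adjusted p = 0.0109 in edgeR; 0.55 with neither the TAC+PDE5A-I libraries nor TAC+PDE9A-I 5, adjusted p = 0.0176). The causes of the changes below were not tested.

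In TAC against Sham, 13 microRNAs were called, but 20 without a filter, 25 with the GC correction, 4 with ear tag range, 51 by DESeq2, 98 in the 2-group fit, 30 without the TAC+PDE5A-I libraries and 81 without those and TAC+PDE9A-I 5. The log2 fold change of miR-148b-5p turned to 0.044 with total counts, 0.062 without a filter and 0.0019 in the 2-group fit. Leaving out 1 library gave 3 to 15 calls, with 4, 7, 4, 3 and 5 calls without Sham 1, 2, 3, 4 and TAC 4, and log2 fold changes of -0.097 to 0.41 for miR-148a-3p, -0.016 to 0.32 for miR-148b-3p and -0.31 to 0.075 for miR-148b-5p. The log2 ratio differences then ran from -0.061 to 0.11 for miR-148a-3p to miR-148b-3p, -0.21 to 0.015 for miR-148a-3p to miR-152-3p and -0.064 to 0.45 for miR-148b-3p to miR-148b-5p.

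In TAC+PDE9A-I against TAC, 0 were called, but 1 with upper-quartile factors, 1 with the GC correction, 4 by DESeq2 and 2 without the TAC+PDE5A-I libraries and TAC+PDE9A-I 5. The GC correction gave log2 fold changes of 0.25 for miR-148b-3p and 0.20 for miR-148b-5p, and the fit without those libraries gave 0.10 for miR-148b-5p and 0.10 for miR-152-3p. Leaving out 1 library gave 0 to 1 calls, -0.26 to 0.11 for miR-148b-5p and -0.27 to 0.11 for miR-152-3p. The log2 ratio differences then ran from -0.56 to 0.094 for miR-148a-3p to miR-148b-3p, -0.29 to 0.16 for miR-148b-3p to miR-152-3p, -0.44 to 0.042 for miR-148a-3p to miR-148a-5p and -0.39 to 0.16 for miR-148b-3p to miR-148b-5p.

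In TAC+PDE9A-I against Sham, 11 were called, but 30 with total counts, 1 with ear tag range, 38 by DESeq2, 4 in the 2-group fit and 42 without the TAC+PDE5A-I libraries and TAC+PDE9A-I 5. The log2 fold change of miR-148a-5p turned to 0.17 with total counts, 0.061 without a filter, 0.075 with the GC correction, 0.048 in the 2-group fit, 0.025 without the TAC+PDE5A-I libraries and 0.14 without those and TAC+PDE9A-I 5. That of miR-148b-3p turned to 0.012 with total counts, 0.33 with the GC correction and 0.015 with ear tag range. That of miR-148b-5p turned to 0.025 with the GC correction and 0.025 in the fit without both sets of libraries, which also gave 0.068 for miR-148a-3p. That of miR-152-3p turned to -0.31 with ear tag range. Leaving out 1 library gave 7 to 31 calls, with 7 without Sham 3, Sham 4, TAC+PDE9A-I 3 or TAC+PDE9A-I 4, 27 without TAC+PDE9A-I 2 and 31 without TAC+PDE9A-I 6. It gave -0.27 to 0.11 for miR-148a-3p, -0.13 to 0.18 for miR-148a-5p, -0.23 to 0.065 for miR-148b-5p and -0.0072 to 0.36 for miR-152-3p. The log2 ratio differences then ran from -0.53 to 0.12 for miR-148a-3p to miR-148b-3p, -0.36 to 0.083 for miR-148b-3p to miR-152-3p, -0.068 to 0.17 for miR-148b-3p to miR-148b-5p and -0.33 to 0.0056 for miR-152-3p to miR-152-5p.

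In TAC+PDE5A-I against TAC, 260 were called (121 higher, 139 lower), but 144 with the GC correction (94 higher, 50 lower). Upper-quartile factors gave 172 higher and 110 lower, DESeq2 size factors in edgeR 91 and 155, DESeq2 103 and 185 and no filter 58 and 143. The log2 fold change of miR-148a-3p was -1.19 with the GC correction, and that of miR-148b-3p turned to 0.37 with upper-quartile factors and 1.83 with the GC correction, which gave 0.42 for miR-148b-5p, -0.23 for miR-148a-5p and -0.17 for miR-152-5p. Leaving out 1 library gave 165 to 280 calls, with 165 without TAC+PDE5A-I 3, and -0.53 to -0.064 for miR-148b-3p. The log2 ratio difference of miR-148a-3p to miR-152-3p then ran from -1.28 without TAC+PDE5A-I 5, the library at 0 for miR-152-3p, to 0.75.

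Of 30 same-numbered pairs of libraries, 7 correlated over 0.1 (range -0.21 to 0.35). The highest joined TAC+PDE9A-I 5 and TAC+PDE5A-I 5. Differently numbered pairs were not examined, so this cannot decide whether replicate numbers pair the mice. With the replicate block, 14, 0, 16 and 264 microRNAs were called in TAC against Sham, TAC+PDE9A-I against TAC, TAC+PDE9A-I against Sham and TAC+PDE5A-I against TAC. The block turned the log2 fold change of miR-152-3p in TAC+PDE9A-I against Sham to -0.18 and changed no call of a family arm. The median of all microRNAs was -0.08 in TAC against Sham and -0.06 in TAC+PDE9A-I against Sham, and went to 0.09 and 0.14 with total counts.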
